A study of Mus musculus with 3 samples.

Results

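The cells described here are dividing immature cells of the T lineage, 445 cells of 29513 in 3 single-cell libraries from mouse non-small cell lung cancer. They were chosen by their measured RNA counts: each had at least 2 unique molecular identifiers (UMIs, each standing for 1 captured RNA molecule) of Rag1, Dntt and Arpp21 together, at least 1 of Cd3e, Cd3d and Cd3g, and at least 2 of Mki67 and Top2a. Cells with any UMI of the B-cell genes Cd79a and Ms4a1, or more than 2 of the myeloid gene Lyz2, were left out. The libraries, 1 per group, are labelled PD-L1, AI-Exo and PBS. Cells were captured in 10x Genomics droplets, and polyA RNA was read from its 3′ end on an Illumina NovaSeq. The labels do not spell these names out and, as used here, give no strain, age, sex, dose, time or sort, so what PD-L1 and AI-Exo stand for is not stated, and PBS is taken as the control by its name alone. With 1 library per group no difference has a replicate check, no test was made, and a difference between libraries cannot be told apart from a difference between animals, dissections or library preparations. The 95% intervals given below (exact Poisson for levels, exact Clopper-Pearson for shares) cover counting error only.

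T cells are made in the thymus from precursors that first carry neither of the coreceptors CD4 and CD8. Such a precursor cuts and joins its T cell receptor beta gene with the RAG1 and RAG2 recombinase, while terminal transferase, the product of Dntt, adds bases at the joins. A working beta chain pairs with the pre-T alpha chain, the product of Ptcra, and that receptor sends the cell into rapid division, during which CD8 and then CD4 appear. Division then stops, the recombinase returns, and the alpha gene is joined in small resting cells that carry both coreceptors, most of which die unless their receptor is selected.

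Of the members, 263 came from the PD-L1 library and 182 from PBS, against 0 in AI-Exo. They made up 2.71% of 9697 PD-L1 cells (95% interval 2.40 to 3.06%), 0 of 10457 AI-Exo cells, and 1.94% of 9359 PBS cells (1.67 to 2.25%). The share in PD-L1 was 1.39 times that in PBS (1.15 to 1.68), an interval that counts cells and not animals. The 0 cells in AI-Exo allow a share of up to 0.0287% by a bound of 3 counts and up to 0.0353% by the exact interval. The AI-Exo library did not lack dividing T cells: 201 of its cells met the same division rule with at least 2 Cd3 UMIs and no precursor UMI, against 81 in PD-L1 and 84 in PBS. The precursor genes were what few of its cells held: 9 AI-Exo cells reached 2 UMIs of Rag1, Dntt and Arpp21, and 1 of these had a Cd3 UMI. Cells that met the rule on precursor, Cd3, B-cell and myeloid genes but had no UMI of Mki67 or Top2a are called quiescent immature cells. They numbered 440 in PD-L1, 1 in AI-Exo and 497 in PBS. Of all cells that met those limits, 35.0% were dividing in PD-L1 and 24.8% in PBS.

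The libraries had median depths of 3948.0 UMIs per cell in PD-L1, 4425.0 in AI-Exo and 4380.0 in PBS. The members were much deeper, with medians of 20970.0 UMIs and 4476.0 genes in PD-L1 and 15361.5 UMIs and 4008.5 genes in PBS. Quiescent immature cells had medians of 2845.5 and 2863.0 UMIs in PD-L1 and PBS, and dividing mature T cells (Cd3 and division rule met, no precursor UMI) had 8961.0 and 6862.5. Because a rule on numbers of UMIs is met more easily by a deep cell, depth differs with the rule, and its part in the share of members was not tested beyond thinning every cell to 2000 UMIs, which gave 0.889% in PD-L1 and 0.576% in PBS. PD-L1 and PBS shared 23 cell barcodes and no member barcode, and 14 PD-L1 and 10 PBS members had a doublet score over 0.15, or 5.32% and 5.49% of the members, against 5.68% and 4.82% of all cells. At the edge of the rule, 25 PD-L1 and 22 PBS members had exactly 2 Mki67 and Top2a UMIs, and 48 and 54 otherwise eligible cells had 1. For the precursor genes, 2 PD-L1 members and 1 PBS member had exactly 2 UMIs, and 7 and 6 cells had 1. The members at 2 division UMIs had 6676.4 and 4732.6 CPM (UMIs per 1000000 UMIs of the class) of a list of 52 genes of G2 and M phase, in PD-L1 and PBS, and the cells at 1 division UMI had 3866.5 and 3878.9, against 11818.2 and 11475.2 in all members.

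The genes that chose the cells were present at similar levels in both libraries and are given as a description. Dntt stood at 570.4 CPM in PD-L1 members and 542.9 in PBS members, Arpp21, which codes for an RNA-binding phosphoprotein, at 323.3 and 388.0, and Rag1 at 100.8 and 116.9. Quiescent immature cells had about the same Dntt, 575.8 in PD-L1 and 527.4 in PBS, but more Rag1, 383.7 and 333.6, and more Arpp21, 690.6 and 692.4. Mki67, a protein that coats chromosomes in dividing cells, stood at 279.8 CPM in PD-L1 members and 264.4 in PBS members, and Top2a, which untangles DNA, at 525.3 and 530.3. The label was then checked on genes outside the rule. Ptcra, the pre-T alpha gene, stood at 47.2 CPM in PD-L1 members (41.8 to 53.1) and 40.5 in PBS members (33.7 to 48.2) and had 0 UMIs in the dividing mature T cells of both libraries. Cd24a, a surface antigen of immature thymocytes, stood at 204.4 CPM in PD-L1 members and 263.1 in PBS members, against 5.21 and 14.1 in dividing mature cells. The CD8 chain genes Cd8a and Cd8b1 stood at 182.1 and 168.1 CPM in PD-L1 members and at 180.2 and 176.4 in PBS members. In dividing mature cells Cd8b1 stood at 219.0 in PD-L1 and 118.6 in PBS, so its level did not set the members apart from them. Ptcra and Cd24a are genes of thymocytes on both sides of the step at which the pre-T receptor acts. Both stages belong to immature T-lineage cells, while the tissue that the label names was a lung cancer.

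**Figure D1:**
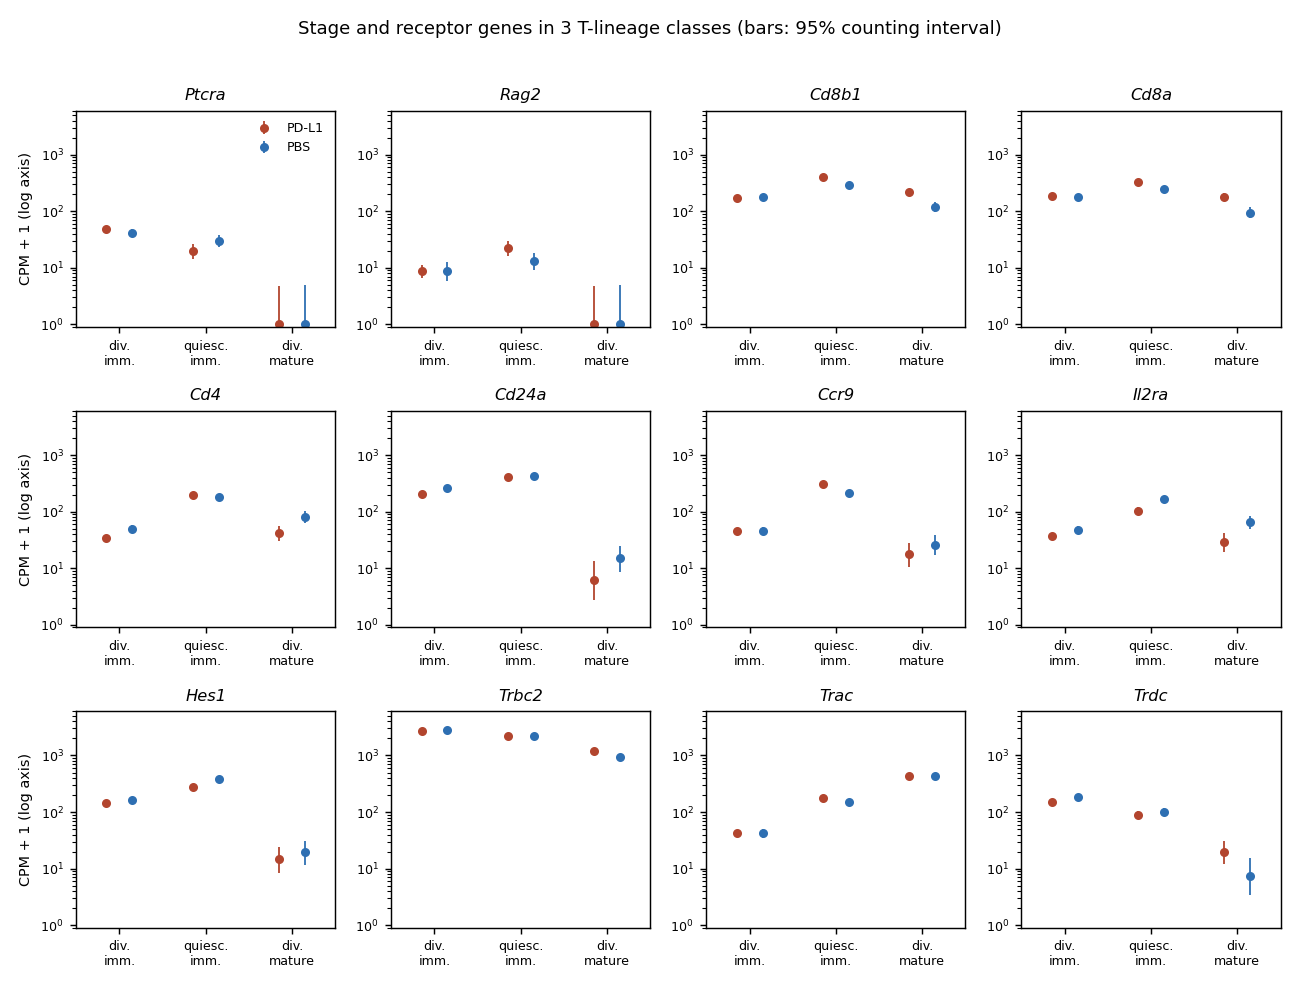
Levels of stage genes and T cell receptor genes in CPM plus 1 (log axis), for dividing immature, quiescent immature and dividing mature cells of the PD-L1 and PBS libraries, 1 point per library and class with bars for the exact Poisson 95% interval. The points for Ptcra stand for 47.2 and 40.5 CPM in dividing immature cells and those for Trac for 41.9 and 40.8, against 173.9 and 147.3 for Trac in quiescent immature cells.

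The receptor genes showed beta-chain RNA without matching alpha-chain RNA. Trbc2, a beta constant gene, stood at 2685.9 CPM in PD-L1 members (2644.1 to 2728.1) and 2860.5 in PBS members (2801.4 to 2920.6), while Trac, the alpha constant gene, stood at 41.9 (36.8 to 47.5) and 40.8 (34.0 to 48.5). Trbc1 and Trbc2 are near-identical copies whose split is uncertain, so both were summed: the members held 99.5 Trbc UMIs for each Trac UMI in PD-L1 and 109.4 in PBS. The same ratio was 20.7 and 25.4 in quiescent immature cells and 4.19 and 3.74 in dividing mature cells. UMIs are counted per molecule at the 3′ end and not divided by gene length, so the ratio is compared between classes and not read as a ratio of proteins. In cells thinned to 2000 UMIs, a Trac UMI was seen in 12.2% of PD-L1 members and 8.24% of PBS members, in 33.3% and 22.2% of quiescent immature cells, and in 49.4% and 42.0% of dividing mature cells. Neutrophils, which should lack the gene, were taken as cells with at least 10 UMIs of S100a8 and S100a9 and no Cd3 UMI. They showed a Trac UMI in 0.323% and 0.615% at the same depth. Leaving out cells with a Cd3 UMI also leaves out cells with stray T cell RNA, so these shares may be too low as a background. The part of free RNA in the Trac shares of the members was not tested.

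Other parts of the receptor were compared between the same classes. A Ptcra UMI was seen in 7.98% of thinned PD-L1 members and 6.59% of thinned PBS members, and in 50.6% and 39.0% at full depth, against 3.33% and 4.49% of thinned quiescent cells. Trdc, the delta constant gene, which lies inside the alpha locus and is cut out when alpha is joined, stood at 152.4 CPM in PD-L1 members and 180.5 in PBS members, against 89.3 and 100.8 in quiescent cells and 18.8 and 6.53 in dividing mature cells. Summed over the variable segments, Trbv stood at 37.0 CPM in PD-L1 members and 45.9 in PBS members, and Trav at 10.2 and 13.2. The quiescent cells had 45.2 and 46.5 CPM of Trbv, and 35.3 and 28.7 of Trav. Segment RNA in the members was therefore nearly level with the quiescent cells for beta, and below it for alpha. In the members these sums rest on 217 and 143 Trbv UMIs and 60 and 41 Trav UMIs. RNA was read from its 3′ end, and RNA of joined and unjoined segments was not told apart. The signalling chains of the receptor were all present, with Cd3g at 775.0 and 891.1 CPM in PD-L1 and PBS members, Cd3d at 430.2 and 437.8, Cd3e at 282.7 and 303.9, and Cd247, the zeta chain, at 236.6 and 262.4.

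Coreceptor RNA differed among the members, though a missing UMI does not show that a cell lacks the coreceptor. Thinned to 2000 UMIs, 46.0% of PD-L1 members (39.9 to 52.2%) and 46.2% of PBS members (38.8 to 53.7%) had no UMI of Cd4, Cd8a or Cd8b1. CD8 genes without Cd4 were seen in 41.4% and 41.2%, both coreceptors in 10.6% (7.19 to 15.0%) and 10.4% (6.40 to 15.8%), and Cd4 alone in 1.90% and 2.20%. The shares in the libraries lay within each other's intervals. In quiescent immature cells at the same depth, both coreceptors were seen in 28.9% in PD-L1 and 23.7% in PBS, and neither in 24.4% and 37.7%. The 80 PD-L1 and 118 PBS quiescent cells under 2000 UMIs were left out. At 4000 UMIs, neither was seen in 39.7% and 50.3% of the quiescent cells that remained, against 36.0% and 36.4% of members. The contrast in the share with neither thus turned with depth. At 2000 UMIs, no dividing mature cell of the 81 thinned in either library showed both. Neither was seen in 65.4% of them in PD-L1 and 59.3% in PBS, more than in the members, so the share with neither is not read as a stage. Neutrophils showed CD8 genes alone in 1.49% and 0.351% and Cd4 alone in 0.323% and 0.263%, and how much of the Cd4-only share of the members comes from missed CD8 UMIs was not tested. At full depth, 36 PD-L1 members (13.7%) and 37 PBS members (20.3%) had neither. CD8 genes only were seen in 117 and 76, and both coreceptors in 104 and 67, and these cells are compared next.

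**Figure D2:**
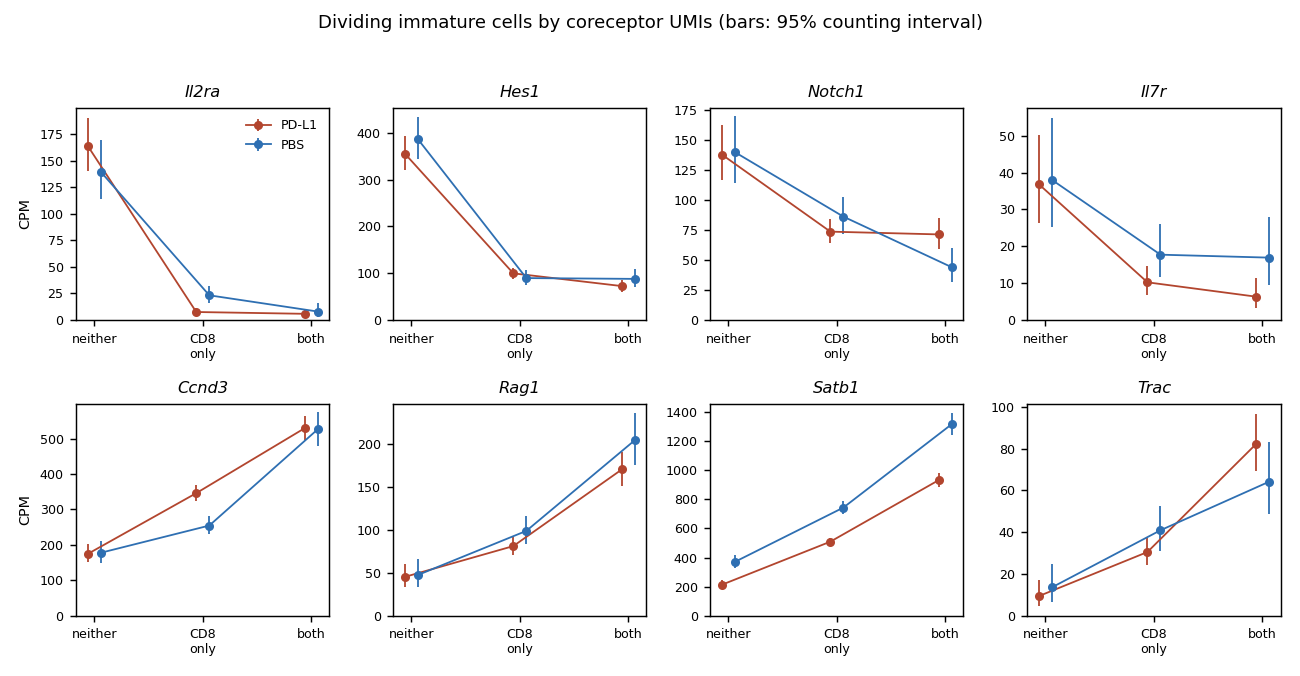
Levels of 8 stage genes in CPM (linear axes from 0) in members with UMIs of neither coreceptor, of CD8 genes only and of both, for the PD-L1 and PBS libraries, with exact Poisson 95% intervals. Il2ra runs from 164.1 to 5.74 in PD-L1 and from 139.7 to 7.87 in PBS from left to right, while Rag1 and Ccnd3 run upward in both.

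Along that order, from neither coreceptor through CD8 only to both, 5 of 11 early and Notch target genes were lower in cells with both coreceptors than in cells with neither, and 1 was higher. Il2ra, the high-affinity interleukin-2 receptor chain that marks precursors at the beta-joining stage, stood at 164.1, 7.45 and 5.74 CPM in PD-L1 and at 139.7, 23.2 and 7.87 in PBS. Hes1, a target of the Notch receptor, stood at 355.6, 99.5 and 72.3 in PD-L1 and at 386.6, 89.4 and 87.7 in PBS. Both were lower in cells with both coreceptors, by log2 ratios of -3.47 and -2.15 in PD-L1 and -3.07 and -2.02 in PBS, as ratios of CPM plus 10. Notch1 itself stood at 137.7, 73.5 and 71.2 in PD-L1 and at 139.7, 86.0 and 43.8 in PBS. The gene of that list that was higher was Cd44, an adhesion receptor, at 17.0, 19.6 and 42.5 in PD-L1 and at 14.9, 18.4 and 66.3 in PBS. Tcrg-C1, a gamma constant gene, stood at 126.4, 14.6 and 3.44 in PD-L1 and 112.6, 38.2 and 8.99 in PBS, though its copies share sequence and their split is uncertain. The receptor genes of the later stage went the other way: Trac stood at 9.43, 30.5 and 82.1 CPM in PD-L1 and at 13.6, 40.9 and 64.1 in PBS. The Trbc to Trac ratio was thus 301.1, 132.0 and 64.8 in PD-L1, and 237.4, 102.5 and 92.9 in PBS.

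Transcription factors and signalling genes of the stage with both coreceptors were higher at its end of the order. Rag1, a gene of the rule, stood at 45.3, 81.2 and 170.5 CPM in PD-L1 and 47.5, 98.9 and 204.6 in PBS. Satb1, a chromatin organizer, stood at 213.2, 509.1 and 932.3 in PD-L1 and 370.3, 743.1 and 1316.6 in PBS. Themis, a regulator of receptor signalling during selection, and Ccr9, a thymic chemokine receptor, were also higher, with log2 ratios of 1.62 and 2.08 in PD-L1 and 1.28 and 1.45 in PBS. The D-type cyclins, which start the cycle with CDK4 and CDK6, changed places. Ccnd2 stood at 82.1, 28.1 and 13.8 CPM in PD-L1 and 50.2, 25.9 and 13.5 in PBS, whereas Ccnd3 stood at 174.5, 345.9 and 529.3 in PD-L1 and 177.7, 254.5 and 526.2 in PBS. Cdk6 was lower with both coreceptors, at 155.6 against 486.7 CPM with neither in PD-L1 and 95.6 against 370.3 in PBS. Ptcra had no common order, with 39.6, 42.6 and 55.1 CPM in PD-L1 and 48.8, 44.4 and 28.1 in PBS.

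Of 81 genes measured from the stage, receptor, cyclin and effector lists, which include genes of the rule, 30 ran upward and 9 ran downward along the 3 classes in both libraries, and 42 did neither in both. Of all 7934 genes, 12.9% ran upward and 7.13% downward in both. Over all 7934 genes, 468 (5.90%) were at least 1.5 times higher in cells with both coreceptors than in cells with neither in each library, and 208 (2.62%) were lower, with median log2 ratios of 0.05 in PD-L1 and 0.07 in PBS. By edgeR's TMM scaling the counts were 383 and 264. Read against that background, 7 of 16 genes of the double-positive stage (cells with both coreceptors) and 7 of 14 selection genes were higher, and 2 other selection genes were lower. Of 18 Myc and ribosome genes 9 were lower (median log2 -0.71 in PD-L1 and -0.86 in PBS), and 14 of 52 G2 and M genes were higher (0.45 and 0.80), whereas 0 of 42 S phase genes passed the size in either direction. Neutrophil RNA moved with the same contrast: S100a8 and S100a9 summed to 40.6 CPM with neither coreceptor, 272.5 with CD8 only and 575.8 with both in PD-L1, and to 326.9, 160.4 and 694.8 in PBS. Single cells with both coreceptors reached 26291.2 and 39981.7 CPM in PD-L1 and PBS. All 3 neutrophil markers measured, 2 of 4 monocyte markers and 2 of 3 dendritic markers were higher with both coreceptors, and their part in the other differences was not tested. Depth ran the other way from detection: median UMIs were 13796.0 with both coreceptors and 28883.0 with neither in PD-L1, and 11499.0 and 20684.0 in PBS. Among members of at least 10000 UMIs, the 30 upward and the 9 downward genes kept their direction between the end classes in both libraries, and 21 and 8 of them passed the size.

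The cell cycle genes placed the members across S, G2 and M phase. S phase genes took a median of 0.647% of a member's UMIs in PD-L1 (quartiles 0.449 and 0.867%) and 0.468% in PBS (0.235 and 0.777%), and G2 and M genes took 1.17% (0.780 and 1.56%) and 1.14% (0.708 and 1.56%). Quiescent immature cells had 0.111% and 0.107% for S and 0.211% and 0.210% for G2 and M, and dividing mature cells had 0.266% and 0.210% for S and 0.655% and 0.360% for G2 and M. More S than G2 and M UMIs were found in 59 PD-L1 members (22.4%, 17.5 to 28.0%) and 45 PBS members (24.7%, 18.6 to 31.7%). The split is a point on a range, since 60 PD-L1 and 31 PBS members lay within 10% of equal UMIs, and with each gene weighted equally the shares were 55.5% and 48.9%. Phase calls and free RNA were not separated further.

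**Figure D3:**
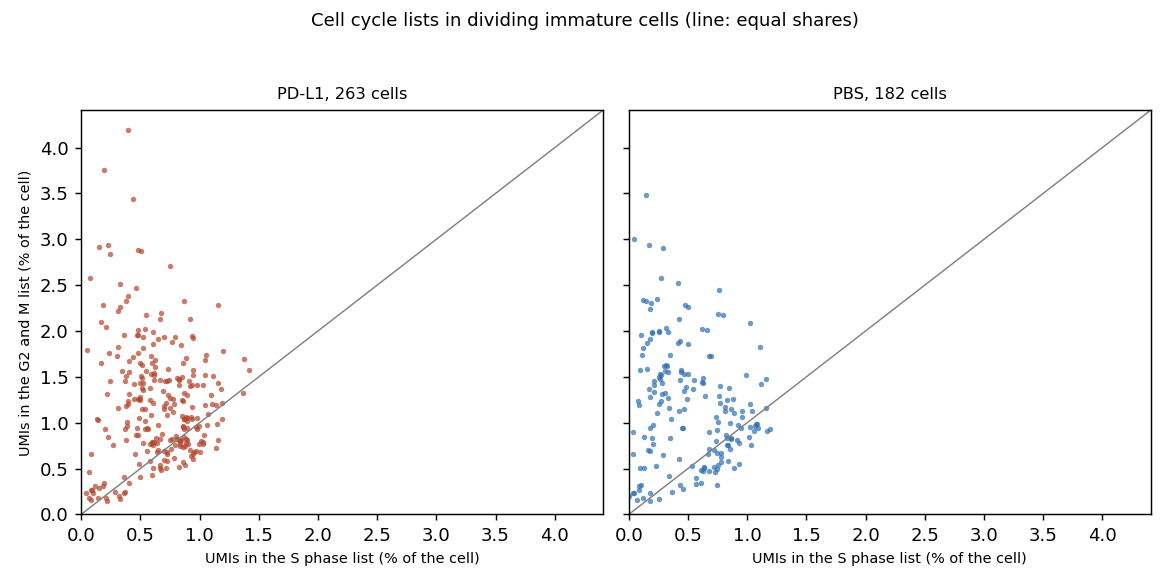
Share of each member's UMIs from S phase genes (horizontal axis, percent) and from G2 and M phase genes (vertical axis, percent), 1 point per cell, for 263 PD-L1 and 182 PBS members, with a line at equal shares. Points lie around medians of 0.647% and 1.17% in PD-L1 and 0.468% and 1.14% in PBS, and 59 PD-L1 and 45 PBS members lie below the line.

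Within the members, cells with more S UMIs differed from the other members in genes outside those lists too. Rag1 stood at 66.6 CPM in the S-leaning cells and 109.9 in the others in PD-L1, and at 49.3 and 140.0 in PBS. RAG2 protein is known to be destroyed at entry into S phase, but Rag2 RNA, at 7.66 CPM in PD-L1 members and 7.71 in PBS members, was too low for a split. E2f1, a factor that switches on replication genes, stood at 81.3 and 43.7 in S-leaning and other PD-L1 members and at 89.7 and 34.5 in PBS. Ccne1, a cyclin of S phase entry, stood at 56.1 and 25.2 in PD-L1 and 26.5 and 18.9 in PBS. Satb1 was lower in the S-leaning cells, at 393.3 against 629.4 in PD-L1 and 539.7 against 918.2 in PBS. Cd4 was lower in them too, at 19.5 against 36.4 in PD-L1 and 22.8 against 57.3 in PBS. Rag1 and Satb1 also ran upward along the coreceptor order above, so phase and coreceptor class are not separated here. The part of each in these differences was not tested. Dntt had no common direction, with 620.1 and 557.3 in PD-L1 and 485.4 and 562.5 in PBS, and neither did Ptcra, with 47.1 and 47.2 in PD-L1 and 45.5 and 38.8 in PBS.

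The replication genes as a group are known to be switched on through E2F sites in their promoters, and genes of G2 and M through a short element called CHR. RefSeq start sites of build GRCm38.p6 gave promoter windows for 30 of the 42 S genes and 46 of the 52 G2 and M genes, and the 250 bases before each start were searched on both strands. An E2F word (TTTCCCGC, TTTCGCGC, TTTGCCGC or TTTGGCGC) was in 8 of 30 S windows (26.7%) and 2 of 46 G2 and M windows (4.35%), against 1.91% of 27025 windows of all genes. The CHR word TTTGAA was in 5 of 30 S windows (16.7%) and 17 of 46 G2 and M windows (37.0%), against 16.3% of all. The promoter stretches below belong to the most abundant S and G2 and M genes of the members with such a word in the stretch. Mcm6, a subunit of the replicative helicase, and Dtl, which marks replication proteins for destruction, show E2F words, 2 of the 3 in Mcm6 overlapping on opposite strands. Hmgb2, a chromatin protein, and Ube2c, which helps to destroy cyclin B, show CHR words, the one in Ube2c on the other strand. Each is 120 bases long, 5′ to 3′ on the gene's strand, with the words in capitals. The Mcm6 stretch is chr1:128359706-128359825 on the minus strand, that of Dtl chr1:191575545-191575664 on the minus strand, that of Hmgb2 chr8:57511723-57511842 on the plus strand, and that of Ube2c chr2:164769809-164769928 on the plus strand. A match of letters is a description and not shown to be a working site.
Mcm6: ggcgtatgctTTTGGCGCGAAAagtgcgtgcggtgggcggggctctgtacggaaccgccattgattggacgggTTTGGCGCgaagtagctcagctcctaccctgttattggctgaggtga
Dtl: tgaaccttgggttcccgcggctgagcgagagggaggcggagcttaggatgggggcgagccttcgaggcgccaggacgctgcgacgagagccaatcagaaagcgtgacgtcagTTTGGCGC
Hmgb2: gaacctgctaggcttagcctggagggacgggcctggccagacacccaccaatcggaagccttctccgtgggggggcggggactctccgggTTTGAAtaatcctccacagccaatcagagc
Ube2c: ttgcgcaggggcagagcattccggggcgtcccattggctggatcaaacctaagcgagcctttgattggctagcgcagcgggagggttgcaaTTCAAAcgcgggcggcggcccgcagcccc

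Mcm6 stood at 279.7 CPM in PD-L1 members and 210.4 in PBS members, against 70.1 and 50 in quiescent immature cells. Hmgb2 stood at 3937.4 and 3316.7, against 641.8 and 486.1, and Ube2c at 484.1 and 546.1, against 11.4 and 14.3. All genes of the cycle lists differ here in part because the rule asked for Mki67 and Top2a, so these levels are a description. Pcna, the sliding clamp of replication, stood at 595.6 in PD-L1 members and 454.2 in PBS members, against 160.4 and 122.1, and Rrm2, which makes deoxynucleotides, at 272.9 and 216.8, against 19.7 and 6.52. Birc5, the survivin of the chromosomal passenger complex, stood at 458.5 and 516.9, against 17.1 and 8.69.

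Set against quiescent immature cells, the division rule separated far more than the cycle genes, which is given as a description. Of 8223 genes, 1038 (12.6%) were at least 1.5 times higher in members in both libraries and 1568 (19.1%) were lower. That split depends on scaling, since TMM gave 1699 higher and 770 lower of the same genes. It moved the median log2 ratio of all genes to 0.15 in PD-L1 and 0.06 in PBS, against -0.19 and -0.14 on library totals. Higher were 40 of 42 S genes, 44 of 48 G2 and M genes, 13 of 14 genes of nucleotide synthesis, 11 of 15 histone genes and 11 of 18 Myc and ribosome genes. Among the highest were Pclaf, a partner of Pcna, at 911.2 CPM in PD-L1 members and 713.8 in PBS members, against 27.5 and 13.9, and the mitotic kinesin Kif15, at 186.8 and 168.3, against 1.56 and 4.78. Fbxo5, an inhibitor of the anaphase-promoting complex, stood at 150.4 and 172.5, against 5.19 and 3.04. The spindle proteins Cdca8 and Nusap1 and the histone Hist1h2af completed the leading genes beside Top2a, Mki67, Ube2c and Birc5.

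A part of the genes of the resting stage with both coreceptors was lower in the dividing cells. The cut on precursor UMIs asks for a higher level in the shallower quiescent cells, and its part in these differences was not tested. Of 20 genes of that stage 11 were lower (5 with TMM), with median log2 ratios of -0.84 in PD-L1 and -0.68 in PBS. Ccr9 stood at 45.3 CPM in PD-L1 members and 44.7 in PBS members, against 304.8 and 214.6, and Satb1 at 580.0 and 822.0, against 1865.6 and 1688.6. Of 15 selection genes 8 were lower (4 with TMM), of 14 apoptosis regulators 8, of 19 autophagy genes 7 (2 with TMM), and of 14 immediate early genes all 14 (12 with TMM). Txk, a kinase of T cell signalling, stood at 34.1 and 53.6 CPM, against 257.5 and 218.9, and the demethylase gene Kdm5b at 28.8 and 33.7, against 168.8 and 160.3. Fhit, Arap2 and Cd52 were among the 10 lowest by ratio as well. Tcf7, a T-lineage factor that Notch switches on, did not pass the size, at 883.0 and 823.0, against 704.1 and 694.6.

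Free RNA moved with this comparison. By the pair S100a8 and S100a9, RNA of neutrophils, up to 5.80% of the UMIs of PD-L1 members and 14.4% of those of PBS members could be free RNA, against up to 25.6% and 19.1% in quiescent immature cells. By 12 markers of other cells the limits were 1.26% and 1.12%, against 4.25% and 3.19%. The remaining leading genes that were lower in the members, Atf3, Cd74, H2-Aa and H2-Eb1, are ones that free RNA could supply to a degree that depends on the limit used. Cd74, the invariant chain of MHC class II, stood at 539.5 CPM in quiescent PD-L1 cells and 283.7 in quiescent PBS cells. Of that, free RNA could give up to 372.4 and 267.1 by the pair, but only up to 61.7 and 44.5 by the 12 markers. Its part in these 4 genes was not separated further.

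Dividing mature T cells share the division rule with the members and lack the precursor genes. Of 8158 genes, 756 (9.27%) were at least 1.5 times higher in members in both libraries and 997 (12.2%) were lower. For the same genes TMM gave 1712 and 742, moving the median log2 ratio to 0.36 in PD-L1 and 0.29 in PBS, against 0.11 and 0.06. Beside the rule genes, the members had more Ly6d, a surface marker of early lymphoid cells, at 635.8 CPM in PD-L1 and 1050.1 in PBS, against 2.09 and 46.8, and more Endou, an endonuclease gene, at 200.3 and 198.2, against 1.04 and 0. Sox4, a factor of lymphoid precursors, stood at 328.0 and 362.0, against 18.8 and 32.6. Zfp704, Xrcc6, Cd24a and Hes1 made up the other genes with the largest ratios. Xrcc6 codes for the Ku70 protein that joins the DNA ends left by the recombinase, and stood at 208.5 and 295.5 CPM, against 24.0 and 27.2. By S100a8 and S100a9, free RNA could make up to 5.80% of the UMIs of PD-L1 members and 14.4% in PBS members, against 0.956% and 1.25% in dividing mature cells, and 3 of 3 neutrophil markers were higher in the members. By the 12 markers of other cells the limits were 1.26% and 1.12%, against 2.15% and 1.21%. Their part in this comparison was not tested.

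Effector genes were low in the members. Of 19 checkpoint and effector genes 18 were lower, with median log2 ratios of -3.11 in PD-L1 and -2.41 in PBS. Nkg7, a cytotoxic granule gene, stood at 23 CPM in PD-L1 members and 12.8 in PBS members, against 1128.2 and 654.0, Ccl5, a chemokine of effector cells, at 83.8 and 103.4, against 2910.1 and 2843.6, and Ifng, the gene of interferon gamma, at 4.77 and 4.82, against 484.8 and 314.5. Gzma was the exception among the 19: this granzyme stood at 390.2 and 431.1 CPM in PD-L1 and PBS members, against 923.8 and 218.7, and within the members at 616.9 and 457.2 with neither coreceptor and 199.8 and 217.0 with both. Of 13 MHC class I genes 11 were lower in the members, and of 19 interferon response genes 14. S phase genes were higher in 17 of 42 cases (28 with TMM), with median log2 ratios of 0.63 in PD-L1 and 0.50 in PBS, and G2 and M genes in 6 of 51 (14 with TMM). Of 19 genes of the double-positive stage 9 were higher and 1, the adhesion gene Cd2, was lower.

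The PD-L1 and PBS members were then compared with each other, 1 library against 1. Of 7833 genes, 79 (1.01%) were at least 1.5 times higher in PD-L1 members and 152 (1.94%) were lower, with a median log2 ratio of -0.01. With TMM the counts were 178 and 120, of 8205 genes that then reached the minimum level, and the median was 0.09. The larger number of lower genes thus turns with the scaling. No gene of the T cell receptor complex (0 of 11) and no G2 and M gene (0 of 52) passed the size, and of 42 S phase genes 1 did, the flap endonuclease Fen1, at 75.5 CPM in PD-L1 and 45.3 in PBS. Of 19 double-positive stage genes only Cd2 passed, at 26.2 and 51.1, and of 9 early genes only Mef2c, a factor of lymphoid progenitors, at 8.01 and 18.

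**Figure D4:**
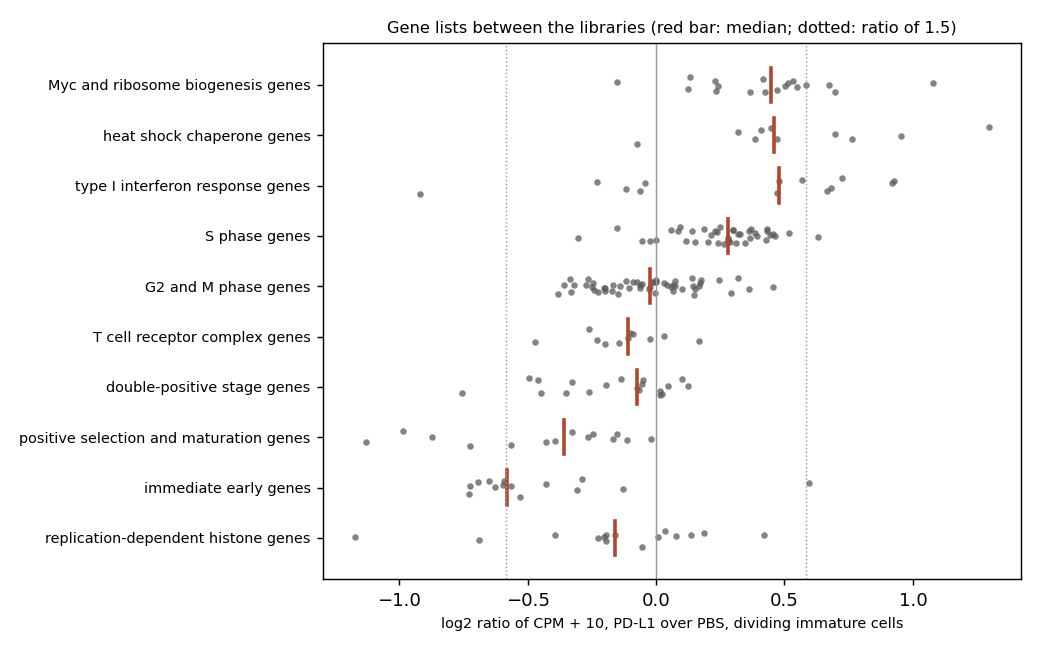
Log2 ratio of CPM plus 10, PD-L1 over PBS, for each gene of the lists in dividing immature cells, 1 point per gene with the list's median as a bar, and lines at 1.5 times. Heat shock genes lie around 0.46, Myc and ribosome genes around 0.45 and immediate early genes around -0.58.

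Heat shock chaperones and growth genes were higher in PD-L1 members in a part of their lists. Hsph1, a heat shock protein that aids HSP70, stood at 117.9 CPM in PD-L1 members and 42.1 in PBS members, a log2 ratio of 1.30 (1.07 to 1.52). The mitochondrial chaperonin Hspd1 stood at 552.9 in PD-L1 (534.0 to 572.2) and 280.4 in PBS (262.1 to 299.7), and the cytosolic chaperone Hsp90aa1 at 1691.0 and 993.2. With Hspe1, the partner of Hspd1, at 765.8 and 468.7, 4 of 10 heat shock genes were higher, with a list median of 0.46. In quiescent immature cells of the same libraries 1 of the list was higher and its median was 0.14. Of 18 Myc and ribosome genes 3 were higher (9 with TMM), with a median of 0.45: the spermidine synthase gene Srm at 89.8 CPM in PD-L1 and 37.3 in PBS, Nop58 at 273.0 and 164.5, and Bop1, which like Nop58 serves ribosome assembly, at 34.6 and 18. The quiescent cells had 2 of these genes higher and a median of 0.31. The other leading genes were Ifi27, Hnrnpa0, Fdps, Purb, Ppa1, Ndufa5 and Lyar, from 0.96 for Ifi27 to 0.73 for Lyar. PD-L1 members were also deeper, at a median of 20970.0 UMIs against 15361.5, and within members of 10000 to 30000 UMIs the medians were 0.28 for heat shock genes and 0.24 for Myc and ribosome genes.

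Interferon response genes leaned the same way in dividing and quiescent cells. In the members 5 of 13 were higher in PD-L1 and 1 was lower, with a list median of 0.48, and in the quiescent cells 6 were higher, with a median of 0.52. Isg15, a ubiquitin-like modifier, stood at 82.8 CPM in PD-L1 members and 47.9 in PBS members, and Rsad2, which codes for viperin, at 40.5 and 16.7. Rtp4, Ifi27l2a and Xaf1 were the others. Ifit1, which binds foreign RNA, was the lower gene, at 11.4 and 30.5. Free RNA could supply up to 15.8 CPM of Rsad2 in PD-L1 members and 19.9 in PBS members, and up to 49.0 and 48.4 of Ifi27l2a, whose levels were 62.2 and 33.7.

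The genes lower in PD-L1 members were led by histone genes. Hist1h2bc stood at 232.8 CPM in PD-L1 and 1117.2 in PBS, a log2 ratio of -2.21 (-2.30 to -2.13), and its ratio in quiescent cells was -1.14. Hist3h2ba stood at 98.4 and 270.8, the linker histone Hist1h1c at 195.7 and 453.6, and Hist3h2a at 106.1 and 241.6. Each of these histone genes was higher in the quiescent cells than in the members of the same library. Hist1h2bc stood there at 771.1 CPM in PD-L1 and 1716.4 in PBS, and Hist1h1c at 592.4 and 1142.9. Their levels are therefore not read as a measure of division. The list of 15 histone genes of replication did not follow as a group, with 2 lower and a median of -0.16. Histone genes are near-identical copies, so the values of single ones are uncertain. Tsc22d3, a glucocorticoid-induced gene, stood at 99.3 CPM in PD-L1 and 263.1 in PBS, and Cirbp, a cold-induced RNA-binding protein, at 84.3 and 190.2. Both were also below 0 in quiescent cells, at log2 ratios of -0.46 and -0.91.

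Immediate early genes, which follow receptor signals and also cell handling, were lower in 7 of 14 cases and higher in 1, Atf3, with a list median of -0.58. With TMM 2 were lower and the median was -0.46, and in the quiescent cells of the same libraries 0 were lower, 2 were higher and the median was 0.00. Fos stood at 430.8 CPM in PD-L1 members and 703.2 in PBS members, Jun at 393.8 and 658.2, Jund at 805.8 and 1270.4, and Egr1 at 34.2 and 63.0. Fosb, Btg2 and Klf6 were the remaining ones. Free RNA could account for up to 277.1 CPM of Fos in PD-L1 and 934.8 in PBS by S100a8 and S100a9, and for 60.3 and 72.5 by the 12 markers, while for Jund the limits were 101.4 and 321.1. Within CD8-only members the list median was -0.24.

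Some genes tied to selection and survival differed as well. Of 14 selection genes 4 were lower in PD-L1 members: Klf2, Egr1, Itm2a and Cd69, an activation marker that stood at 81.1 CPM in PD-L1 and 156.8 in PBS. Itm2a, a gene induced at selection, stood at 32.2 and 73.6. Klf2, the factor of thymic exit and quiescence, stood at 213.8 and 479.9. Free RNA could give up to 136.4 and 473.8 of that by S100a8 and S100a9. By the markers of other cells the limits for Klf2 were only 29.7 and 36.7, so its possible share depends on the limit used. Il1b and Cxcl2, which code for a cytokine and a chemokine of myeloid cells, were also among the leading genes, at 52.3 and 137.5 CPM and at 188.4 and 370.1. For Cxcl2 free RNA could give 310.0 and 830.1 by S100a8 and S100a9, and 67.4 and 64.4 by the markers of other cells. In PBS members 1 cell held 28.3% of the Il1b UMIs and 28.0% of the Cxcl2 UMIs. Neither gene is therefore read as a level of the precursors. Of the 20 leading genes, 17 had the same sign in quiescent immature cells, some near 0 such as Hsph1 at 0.05, and 7 of these passed the size there. Klf2, Il1b and Cxcl2 had the opposite sign, at log2 ratios of 0.33, 1.45 and 0.61 in the quiescent cells. The same counts over all genes are not given here, so these numbers are a description.

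Markers of other cells were present in the members to different extents. Neutrophil markers summed to 335.5 CPM in PD-L1 members and 399.9 in PBS members, with single cells as high as 27320.4 and 44893.8, and at 6057.8 and 2928.7 in free RNA. Monocyte and macrophage markers summed to 92.7 and 133.3, and erythroid and megakaryocyte markers to 2.90 and 17.7. Dendritic cell markers summed to 260.6 and 208.2, of which Bst2, also a gene of the interferon list, gave 160.3 and 112.1. Epithelial, endothelial and stromal markers summed to 126.0 and 153.9, of which Pecam1 gave 100.8 and 120.5. Of the genes of thymic epithelium in that list, Foxn1 and Krt5 had 0 UMIs in the members of both libraries, and Psmb11 had 0 in PD-L1 members and 1 in PBS members. B-lineage markers summed to 252.1 and 222.3, of which Ighm gave 181.6 and 148.1, while Vpreb3 was at 0 in both. Markers of NK and innate lymphoid cells summed to 415.4 and 444.6, mostly the granzyme Gzma, against 390.4 and 343.8 in free RNA, and those of gamma-delta T cells to 259.9 and 323.2, mostly Trdc, against 50.6 and 52.2. The median member was above 0 for every such list in both libraries but the erythroid one and, in PBS, the neutrophil one. Their part in the differences between the libraries was not tested.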

How the data were processed

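Single-cell RNA was measured in 3 mouse libraries, 1 per group. The values are whole-number UMI counts per gene and barcode, not normalized, as deposited by the authors. Matrices came from Cell Ranger 7.1.0 per the file headers, while version 3.0.2 stands in the submitters' processing notes. The genome build, the annotation and the treatment of intronic reads were not given in the sources used here. Barcodes with at least 500 UMIs, 200 genes and at most 20% mitochondrial UMIs were kept as cells. Total UMIs in these cells were 61813852 in PD-L1, 72142040 in AI-Exo and 64594803 in PBS. The deposited counts are not scaled by the authors. Of 40 symbols shared by several identifiers, the first was used. Scrublet in scanpy 1.11.5 marked almost no cell by its automatic threshold, so a score over 0.15 served as an alternative only and no cell was removed.

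UMIs were summed per library and class and divided by the class total (CPM). A gene with a mean of at least 10 CPM was called higher or lower when the ratio of CPM plus 10 reached 1.5, in both libraries for contrasts between classes. No count model or test was run, since each group has 1 library. Before shares of cells with a UMI were counted, cells were thinned to 2000 UMIs each. Free RNA was profiled from barcodes of at most 100 UMIs, and its highest possible share of a class was set by 12 markers of other cells or by S100a8 and S100a9. The text names rule, stage and receptor genes, the 10 highest and 10 lowest genes of each contrast among those of at least 100 CPM and 50 UMIs (without mitochondrial, ribosomal, receptor segment, haemoglobin, sex-linked and predicted genes), and in each list the extremes and most abundant genes. Other genes that make up small counts were named after their values were seen. The members, lists and rule were chosen with earlier results of these data known. The size rule was run on simulated counts with known changes. These held counting error only, with no variation between cells, animals or libraries, so they do not check a difference between libraries. Sequences are from RefSeq, build GRCm38.p6. Python 3.11.15, numpy 2.4.6, scipy 1.17.1, matplotlib 3.10.9, R 4.3.3 and edgeR 4.0.16 (TMM factors only) were used. Alternatives covered the rule, pseudocount, minimum level, scaling, weighting of cells, doublets, thinning depth and phase scoring.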

Additional observations from a re-analysis of the deposited data

How the results depend on the processing

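No paired analysis was possible because each group has 1 library, and for the same reason no library could be left out. Settings called added were chosen after seeing the data. The causes of the shifts were not tested, except that fewer genes or cells enter under some settings by construction. The share of members stayed near 2.71% in PD-L1 and 1.94% in PBS under the other settings, but was 3.21% and 2.52% with 1 division UMI and 0.889% and 0.576% with the rule applied after thinning, and 1 precursor UMI admitted 2 AI-Exo cells (0.0191%). Genes higher and lower in PD-L1 members than in PBS members numbered 208 and 366 with a pseudocount of 1 CPM, 10 and 37 with 50 CPM, 37 and 61 with a minimum of 50 CPM, and 178 and 120 with TMM. In added settings they numbered 155 and 253 in CD8-only members and 331 and 453 in members with both coreceptors, and 148 were higher in members with more G2 and M UMIs.

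The immediate early median of -0.58 was -0.46 with TMM, -0.33 with cells weighted equally and, in added settings, -0.24 in CD8-only members, -0.34 in members of 10000 to 30000 UMIs and -0.45 in those with more G2 and M UMIs. The heat shock median of 0.46 was 0.59 with TMM, 0.71 without doublet scores over 0.15, and in added settings 0.28 in members of 10000 to 30000 UMIs and 0.66 in those with more G2 and M UMIs. The Myc and ribosome median of 0.45 was 0.70 in members with both coreceptors and 0.24 in members of 10000 to 30000 UMIs. Among lists with a median beyond 0.1, the sign turned for the T cell receptor list (0.02 with TMM), the autophagy list (0.00 with TMM) and the checkpoint list (0.07 in members with both coreceptors). The other 129 list values moved by less than the counting error of a gene of the list. For named genes 209 values moved by less than the counting interval, 71 moved by more, and 0 turned sign. Without doublet scores over 0.15, Il1b was at -0.32 and Cxcl2 at -0.47.

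Against quiescent cells, 585 genes were higher and 913 lower with a minimum of 50 CPM, and 1719 and 763 with TMM. Against dividing mature cells these numbers were 420 and 455 with the higher minimum, and 1738 were higher with TMM and the minimum applied to the scaled values. Members with neither coreceptor made up 62.7% in PD-L1 and 69.2% in PBS at 1000 UMIs, 36.0% and 36.4% at 4000 UMIs, and 13.7% and 20.3% unthinned. Both coreceptors were seen in 5.70% and 3.85%, 16.6% and 19.9%, and 39.5% and 36.8% at those depths. A Trav UMI was seen in 3.42% and 4.40% at 2000 UMIs, in 1.65% of PBS members at 1000, and in 15.2% and 15.4% unthinned. With genes weighted equally, 55.5% and 48.9% of members had more S than G2 and M signal. Coreceptor classes thus depend on depth, and depth limits what a missing UMI can show.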

Other observations

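Of 14 apoptosis regulators 8 were lower in the members than in quiescent immature cells in both libraries (with TMM 6 were lower and 3 higher). Among the BCL2 family genes that hold death back, Mcl1 stood at 212.1 CPM in PD-L1 members and 254.7 in PBS members, against 623.6 and 575.2, and Bcl2 at 49.7 and 60.4, against 134.0 and 137.3. Bcl2l11, which codes for the death-promoting BIM, was lower too, at 167.8 and 313.8, against 439.8 and 526.5, and it was above the level of dividing mature cells, 101.1 and 78.4. Between the libraries, Bcl2l11 was lower in PD-L1 members than in PBS members (log2 -0.87), as was Pmaip1, the NOXA gene, at 24.4 and 52.0 CPM (log2 -0.85), while Bcl2a1b, a gene that holds death back, was higher, at 17.4 and 6.75 (log2 0.71), with 39.2% of its PD-L1 UMIs in 1 cell. The other 11 of the 14 did not pass the size.

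Of 13 MHC class I genes 11 were lower in the members than in dividing mature cells. H2-K1, an MHC class I heavy chain, stood at 195.2 CPM in PD-L1 members and 200.1 in PBS members, against 1741.3 and 1634.6 in dividing mature cells. Its activator Nlrc5 stood at 8.01 and 8.03, against 98.0 and 101.2, and B2m, the light chain, at 516.4 and 628.0, against 2250.1 and 2130.8. The transporter gene Tap2 stood at 140.9 and 234.5, against 105.3 and 119.7, and it was lower in PD-L1 than in PBS members (log2 -0.70). Of 15 glycolysis genes 6 were lower in the members than in dividing mature cells and 0 were higher, whereas against quiescent immature cells 6 were higher and 3 lower. The glycolytic genes Ldha and Gapdh stood at 503.1 and 370.1 and at 1656.9 and 1489.5 in PD-L1 and PBS members, against 175.5 and 148.6 and 761.2 and 874.5 in quiescent immature cells. The autophagy receptor Sqstm1 stood at 62.0 and 68.4, against 186.4 and 204.2 in quiescent immature cells, and 0 of 19 autophagy genes passed the size between PD-L1 and PBS members. With 1 library per group, no count in this closing part has a replicate check.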
